A study of Mus musculus with 6 samples.

Results

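Transcript levels of 10 genes of interleukin-1 and interleukin-18 signalling were examined in colon macrophages from mice with and without Gsdmd. The genes were found by symbol among the 17067 genes of each expression table, and all 10 were present: Il1a, Il1b, Il18, Il1rn, Il18bp, Il1r2, Il1r1, Il1rap, Myd88 and Irak2. The cells were sorted as CD45+CD11b+F4/80+ macrophages from the colons of C57BL/6 mice of 10 weeks in which dextran sulfate sodium (DSS), a polymer that injures the colon lining, had induced colitis. Both groups carried this colitis, and no group without DSS was analysed here. The groups were 3 wild-type (WT) and 3 Gsdmd-/- samples. Gsdmd encodes gasdermin D, whose cleaved fragment forms membrane pores through which mature interleukin-1 beta and interleukin-18 leave macrophages. The labels do not say whether the Gsdmd deletion is confined to macrophages, whether the WT mice were littermates, or whether each sample was a separate mouse. The spread behind each p-value is therefore that among 3 samples, and it may be only technical.

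Interleukin-1 alpha and interleukin-1 beta bind a receptor made of the Il1r1 and Il1rap products, and the adaptor encoded by Myd88 then recruits kinases of the IRAK family, Irak2 among them, to activate NF-kB. The route is held back at several points. The Il1rn product occupies the receptor without activating it, the Il1r2 product is a decoy that lacks the signalling part, and the Il18bp product captures interleukin-18. Interleukin-1 beta and interleukin-18 are made as precursors that caspase-1 cleaves in inflammasomes, so a transcript level does not give the amount of active cytokine.

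Levels are in FPKM, fragments per kilobase of transcript scaled to the number of mapped fragments, which allows genes of different length to be set side by side. The tables do not state their unit, and FPKM was inferred from the values. Fragments per library, estimated from the steps between low values, numbered 20.3 M to 20.8 M, so depth was nearly equal. The FPKM sum per sample was 476271 to 485411 in WT and 551502 to 565388 in Gsdmd-/- samples. Gsdmd itself measured 97.7, 99.4 and 97.4 FPKM in the WT samples, against 28.5, 29.0 and 29.7 in the Gsdmd-/- samples. It was lower in each Gsdmd-/- sample but not at 0, and which exons were deleted is not given in the labels. All 10 macrophage markers examined were present, with summed levels of 7973 to 8470 FPKM across WT and 8852 to 8926 across Gsdmd-/- samples, a sum made up mostly of Lyz2 and Cd68. Of these markers 3 rose and 5 fell, where 40.6% of all genes tested rose and 36.9% fell. Without the length and GC trend described further on 2 rose and 8 fell, where 30.0% of all genes rose and 31.3% fell. In TPM (values rescaled to the same sum in each sample) 2 rose and 7 fell, where 25.0% of all genes rose and 51.0% fell. The genes of the sorted surface proteins fell as deposited: Itgam (CD11b) by 0.94, Ptprc (CD45) by 0.67 and Adgre1 (F4/80) by 0.43 on the log2 scale. On that scale the falls were of the same order as those of Il1a, Il1b and Irak2 given further on. Without the length and GC trend they were at -0.70, -0.22 and -0.32, beside -0.57, -0.76 and -0.51 for Il1a, Il1b and Irak2. The part of these marker falls in the Il1a, Il1b and Irak2 values was not tested. Cx3cr1 was low in both groups, at 1.30 and 1.36 FPKM.

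The cytokine genes Il1a and Il1b, which are neighbours, fell together. The adaptor gene Myd88 did not fall as deposited but fell on other scales given further on. For this contrast as deposited, the sequences just upstream of Il1a, Il1b and Myd88 are shown. Each is the 250 bases before the annotated start, 5′ to 3′ on the gene's strand, from RefSeq on GRCm38.p6, and all 10 genes had an entry. The start is that of the promoter table, and the RefSeq gene spans given with the values reach further upstream, so that 214 bases of the Il1a window and 25 of the Il1b window lie within the span of their gene. Capitals mark matches on either strand to any of 6 motifs. The TATA box, which places the start of transcription, was searched as TATAAA. The AP-1 site, bound by Fos and Jun proteins, was searched as TGANTCA and the C/EBP site as TTGCNNAA, where N is any base. The site of PU.1, a factor of myeloid cells, was searched as GAGGAAG. The interferon-stimulated response element was searched as a pair of GAAA words with 2 free bases between them. The NF-kB site was searched as the word GGGA and, after 2 free bases, the word TTCC. Il1a lies at chr2:129309973-129310222, Il1b at chr2:129371140-129371389 and Myd88 at chr9:119340019-119340268, all on the minus strand.
Il1a: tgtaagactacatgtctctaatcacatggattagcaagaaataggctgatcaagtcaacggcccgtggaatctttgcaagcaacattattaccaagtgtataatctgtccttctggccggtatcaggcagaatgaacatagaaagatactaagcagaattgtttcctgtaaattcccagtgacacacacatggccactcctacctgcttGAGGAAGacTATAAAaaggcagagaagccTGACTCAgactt
Il1b: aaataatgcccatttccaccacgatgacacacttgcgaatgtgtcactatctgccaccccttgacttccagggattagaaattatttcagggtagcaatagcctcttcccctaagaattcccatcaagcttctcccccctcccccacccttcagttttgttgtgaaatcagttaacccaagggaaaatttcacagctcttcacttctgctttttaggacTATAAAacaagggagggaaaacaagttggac
Myd88: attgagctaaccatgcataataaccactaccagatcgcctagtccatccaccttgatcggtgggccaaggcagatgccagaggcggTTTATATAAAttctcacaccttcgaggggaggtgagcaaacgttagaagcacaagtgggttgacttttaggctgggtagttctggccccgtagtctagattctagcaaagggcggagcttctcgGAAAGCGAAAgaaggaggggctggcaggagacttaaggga

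The Il1a window held TATAAA at positions -32 to -27 from the start, GAGGAAG at -41 to -35 and TGACTCA, which reads as AP-1 on both strands, at -12 to -6. The Il1b window held TATAAA at -31 to -26 and no other of the 6 motifs as searched. Sites that differ from the searched words in any fixed letter were not counted. The Myd88 window held GAAAGCGAAA at -40 to -31 and 2 overlapping TATAAA matches on opposite strands from -164 to -155. Of the other genes that fell as deposited, Il1rn had an AP-1 match at -141 to -135 of a window. Il1rap and Irak2 had no match to any of the 6 motifs. Of 32536 distinct windows of this length upstream of annotated starts, TATAAA was found in 12.3%, TGANTCA in 6.73%, GAGGAAG in 10.7%, the interferon-stimulated response element in 2.98%, TTGCNNAA in 9.57% and the NF-kB motif in 1.21%. These matches describe letters in a window and were not set against any measure of binding.

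**Figure D1:**
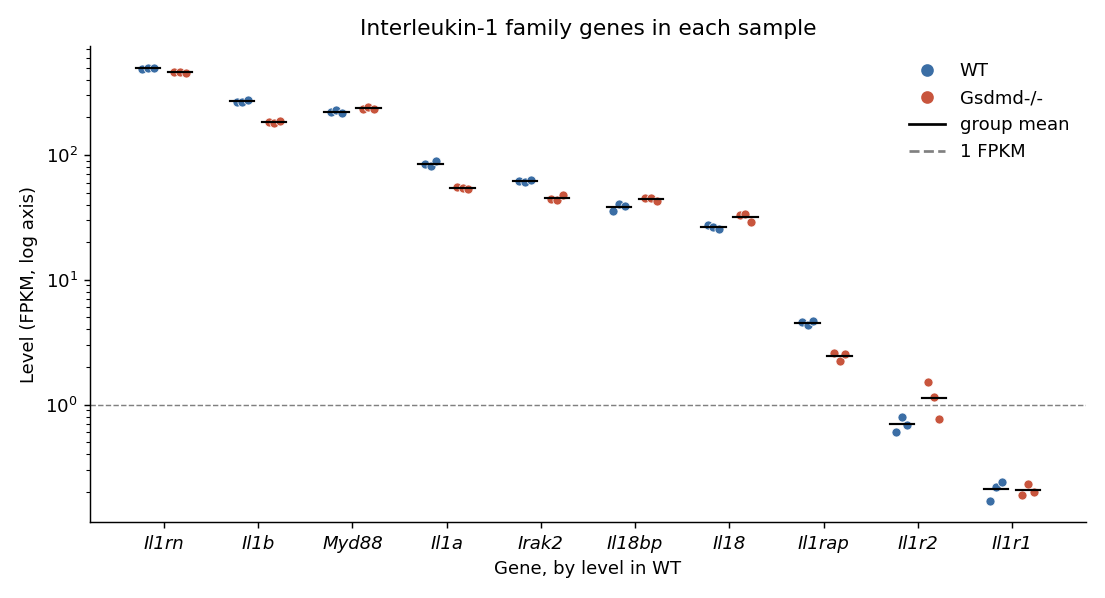
Level of each of the 10 genes in FPKM on a log axis, with 1 point per sample (WT blue, Gsdmd-/- red), black lines at group means and a dashed line at 1 FPKM. The levels run from 498 FPKM for Il1rn in WT to about 0.210 FPKM for Il1r1, and only Il1r2 and Il1r1 have WT samples under the dashed line.

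The inhibitor Il1rn was the most abundant of the 10 transcripts in each of the 6 samples, and the receptor Il1r1 the least abundant. In WT the order of mean levels was Il1rn, Il1b, Myd88, Il1a, Irak2, Il18bp, Il18, Il1rap, Il1r2 and Il1r1, as the plot of levels by sample shows, and the samples of neighbouring genes in this order did not overlap. In Gsdmd-/- samples Myd88 stood above Il1b, while Irak2 (43.7 to 47.4 FPKM) and Il18bp (42.7 to 45.3 FPKM) overlapped. A gene was tested if 3 or more of the 6 samples reached 1 FPKM, which held for 8 of the 10. Il1r2 and Il1r1 did not reach it in enough samples.

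The interleukin-1 cytokines fell in Gsdmd-/- macrophages, as did Il1rap and Irak2 of their signalling route and, by little, the antagonist Il1rn; interleukin-18 and its binding protein rose slightly as deposited, and the receptor subunit Il1r1 was close to the lower limit of detection in both groups. Of the 8 tested genes 5 fell, Il1a, Il1b, Il1rn, Il1rap and Irak2, and 3 rose, Il18, Il18bp and Myd88 (limma on log2(FPKM + 1), adjusted p under 0.05 over all 10005 genes tested). Among all genes tested, 36.9% fell and 40.6% rose, 77.5% in all, so that passing the test sets these genes apart little from the rest. The groups did not overlap for any of the 8, as was so for 79.4% of all genes tested. Their median log2 change was -0.28, beside 0.03 for all genes, with a median absolute log2 change over all genes of 0.329. In bulk samples such as these, fewer cells of a type and less RNA per cell cannot be told apart.

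Il1a, the gene of interleukin-1 alpha (gene 16175, chromosome 2, 129299609 to 129310186), measured 84.4, 81.1 and 89.5 FPKM in the WT samples, against 55.2, 54.8 and 53.4 in the Gsdmd-/- samples. The 3 Gsdmd-/- samples lay within a narrow band well under the lowest WT sample. Il1a fell by 0.63 on the log2 scale (SE 0.0387, limma, adjusted p = 3.25e-08), from 85.0 ± 4.25 to 54.4 ± 0.958 FPKM (SD, n = 3 each), or to 0.641 of the WT level.

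Il1b, the gene of interleukin-1 beta (gene 16176), lies near it on chromosome 2 at 129364569 to 129371164. It measured 264.5, 267 and 276 FPKM in the WT samples, against 183, 182 and 186 in the Gsdmd-/- samples, with the groups far apart and little spread in either. The level in Gsdmd-/- samples was 0.682 of that in WT (log2 change -0.55, SE 0.0275, limma, adjusted p = 7.29e-09). An estimated 7057 to 7489 fragments per WT library and 4926 to 5044 per Gsdmd-/- library lay behind these values. Il1a and Il1b kept their direction and call under each of the 17 alternative settings run, with log2 changes from -0.86 to -0.57 for Il1a and from -0.77 to -0.53 for Il1b.

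Il18, which encodes interleukin-18 (gene 16173, chromosome 9, 50554700 to 50581841), moved the other way as deposited. It measured 27.4, 26.7 and 25.6 FPKM in the WT samples, against 32.8, 33.6 and 29.2 in the Gsdmd-/- samples, so the lowest Gsdmd-/- sample was only slightly above the highest WT sample. Il18 rose, its mean going from 26.6 ± 0.909 to 31.9 ± 2.34 FPKM (SD, n = 3 each), a log2 change of 0.25 with an SE of 0.0525 (limma, adjusted p = 0.000858). Log2 changes of all genes followed transcript length and GC content, as described further on, and once that trend was taken out the change of Il18 was -0.05 (limma, adjusted p = 0.312). Rescaled to TPM it was 0.04 (limma, adjusted p = 0.514). Epithelial cells also express Il18. Of 8 epithelial markers 5 were in the tables, with summed levels of 3.01 to 3.48 FPKM across WT and 1.79 to 2.11 across Gsdmd-/- samples, nearly all from Cdh1, while Krt8, Vil1 and Muc2 were at or under 0.03 FPKM in each sample. Their part in the Il18 values was not tested.

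Among inhibitors, Il1rn, the gene of the interleukin-1 receptor antagonist (gene 16181, chromosome 2, 24336860 to 24351491), measured 492, 501 and 501 FPKM in the WT samples, against 462, 466 and 457 in the Gsdmd-/- samples. The groups were apart but close, with Gsdmd-/- samples at 0.926 of the WT level. Il1rn fell by 0.11 on the log2 scale (SE 0.0237, limma, adjusted p = 0.00110). This small value depended on the scale, at -0.06 without the length and GC trend, -0.33 in TPM and -0.47 after quantile normalization, and each passed the test.

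Il18bp, the gene of the interleukin-18 binding protein (gene 16068, chromosome 7, 102015074 to 102018232), measured 35.7, 40.2 and 39.2 FPKM in the WT samples, against 44.8, 45.3 and 42.7 in the Gsdmd-/- samples. Each Gsdmd-/- sample was above each WT sample, with a gap smaller than the range within WT. Il18bp rose, its mean going from 38.3 ± 2.35 to 44.3 ± 1.40 FPKM (SD, n = 3 each), a log2 change of 0.20 with an SE of 0.0465 (limma, adjusted p = 0.00161), and its log2 change in TPM was -0.01 (limma, adjusted p = 0.797). In the annotation its exons share 80 bases with Numa1 on the opposite strand, and Numa1 was at 16.6 and 17.6 FPKM.

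Il1r2, the gene of the decoy receptor (gene 16178, chromosome 1, 40084692 to 40125230), measured 0.60, 0.80 and 0.68 FPKM in the WT samples, against 1.51, 1.14 and 0.76 in the Gsdmd-/- samples. The third Gsdmd-/- sample lay within the WT range. The means were 0.693 ± 0.101 and 1.14 ± 0.375 FPKM (SD, n = 3 each), from an estimated 17 to 43 fragments per library. In the fit without a filter its log2 change was 0.32 (limma, adjusted p = 0.0620), so no difference was shown at this depth. Neutrophils are known for high Il1r2. Of 12 neutrophil markers 11 were in the tables, with summed levels of 36.4 to 40.4 FPKM across WT and 47.0 to 51.1 across Gsdmd-/- samples. Most of that sum came from Csf3r, and Ly6g was at 0.06 FPKM in 1 WT sample and 0 in the others. The 3 markers tested (Csf3r, Cxcr2 and Mmp8) rose as deposited, where 40.6% of all genes tested rose. Without the length and GC trend all 3 rose, where 30.0% of all genes did, and in TPM 1 of the 3 rose, where 25.0% did. Their part in the Il1r2 values was not tested.

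Among receptor subunits, Il1r1, which encodes the interleukin-1 binding chain (gene 16177, chromosome 1, 40222480 to 40316201), measured 0.17, 0.22 and 0.24 FPKM in the WT samples, against 0.19, 0.23 and 0.20 in the Gsdmd-/- samples. The groups overlapped almost fully, at an estimated 20 to 29 fragments per library. Without a filter its log2 change was -0.0037 (limma, adjusted p = 0.959). Fibroblasts are known to express Il1r1, and of 9 fibroblast markers the 5 tested rose in Gsdmd-/- samples, where 40.6% of all genes tested rose. Of these, Col3a1 entered on its level in Gsdmd-/- samples alone. The 5 also rose in TPM and without the length and GC trend, where 25.0% and 30.0% of all genes did. The list of 9 had a sum of 19.9 to 21.4 FPKM across WT and 49.96 to 51.6 across Gsdmd-/- samples, while Lum, Pdgfra, Pdgfrb and Thy1 stayed under 1 FPKM in each sample. Their part in the Il1r1 values was not tested.

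Il1rap, the accessory chain shared by several receptors of the family (gene 16180, chromosome 16, 26581509 to 26730128), measured 4.6, 4.36 and 4.65 FPKM in the WT samples, against 2.58, 2.25 and 2.53 in the Gsdmd-/- samples. No Gsdmd-/- sample came near the WT range. Il1rap fell, its mean going from 4.54 ± 0.155 to 2.45 ± 0.178 FPKM (SD, n = 3 each), a log2 change of -0.68 with an SE of 0.0660 (limma, adjusted p = 1.52e-06). Its Gsdmd-/- level was 0.541 of that in WT, as deposited the largest relative difference among the 8 tested genes. Without the length and GC trend its log2 change was smaller, at -0.27, behind those of Il1b, Il1a and Irak2 (limma, adjusted p = 0.00218). Il1rap has 4 annotated coding transcripts, and the tables give 1 value per gene. Its exons share 552 bases with the antisense gene Gm20319, which is not among the genes analysed here.

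Among signalling genes, Irak2, an IRAK family kinase gene that sustains NF-kB activation (gene 108960, chromosome 6, 113638467 to 113695026), measured 61.7, 60.9 and 63.0 FPKM in the WT samples, against 44.7, 43.7 and 47.4 in the Gsdmd-/- samples. WT samples varied little and all Gsdmd-/- samples were lower. Irak2 fell by 0.44 on the log2 scale (SE 0.0377, limma, adjusted p = 4.94e-07), to 0.732 of the WT level, and by 0.67 in TPM.

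Myd88, the adaptor shared by the interleukin-1, interleukin-18 and most Toll-like receptors (gene 17874, chromosome 9, 119335934 to 119340018), measured 219, 231 and 219 FPKM in the WT samples, against 236, 242 and 233 in the Gsdmd-/- samples. The highest WT and the lowest Gsdmd-/- sample nearly met. Myd88 was higher by 0.09 on the log2 scale as deposited (SE 0.0303, limma, adjusted p = 0.0189), but its direction was not stable: the log2 change was -0.13 in TPM, -0.07 after quantile normalization and -0.19 without the length and GC trend, each past the threshold. The call was also lost without WT replicate 1 (adjusted p = 0.0701), without WT replicate 3 (0.0838) and without Gsdmd-/- replicate 2 (0.0794) in limma. In the annotation Myd88 shares 290 exon bases with Acaa1a on the opposite strand, and Acaa1a rose from 63.7 ± 2.19 to 92.3 ± 0.942 FPKM. Whether counting used strand is not given in the sources used here, so reads of the pair in the shared bases cannot be told apart. The same limit holds for 222 bases that Il1a shares with Gm14023, 196 that Irak2 shares with Gm43963 and 25 that Il1b shares with Il1bos.

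**Figure D2:**
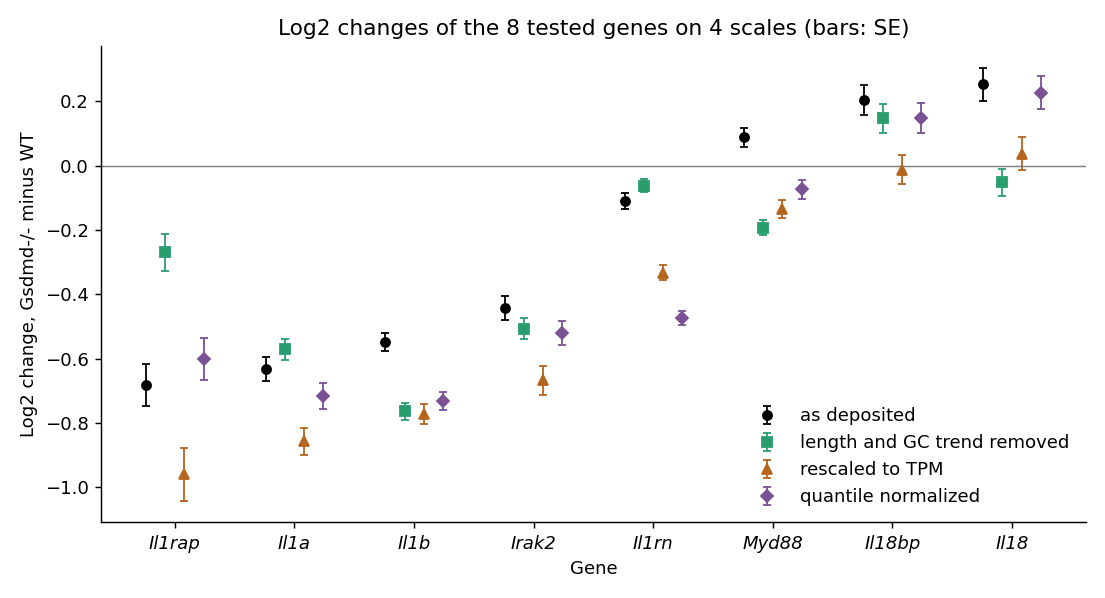
Log2 change of each tested gene, Gsdmd-/- minus WT, with SE bars, on 4 scales: as deposited (black circles), length and GC trend removed (green squares), rescaled to TPM (brown triangles) and quantile normalized (purple diamonds). Il1rap, Il1a, Il1b, Irak2 and Il1rn lie below 0 on each scale, whereas Myd88, Il18bp and Il18 have points on both sides of 0.

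Rescaling to TPM moved the median log2 change of all genes by -0.20, so values are also given against that median. Relative to the median of all genes, Il1b was at -0.58 as deposited and -0.60 in TPM, Il1rn at -0.14 and -0.16, Il18 at 0.22 and 0.21, and Il18bp at 0.18 and 0.16. Myd88 was at 0.06 and 0.04. In TPM 6 of the 8 genes fell, where 51.0% of all genes fell, 25.0% rose and 76.0% passed in either direction, and Il18 and Il18bp did not pass. After quantile normalization 6 fell and 2 rose, where 36.2% of all genes fell, 41.0% rose and 77.1% passed. Once the length and GC trend was taken out 6 fell and 1 rose, where 31.3% of all genes fell, 30.0% rose and 61.4% passed.

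Log2 changes ran with transcript length over all genes, as the plot of log2 change against length shows. The median was 0.52 in the decile with the shortest transcripts and -0.48 in that with the longest, and a smooth trend on length and GC held 50.7% of the variance. Il1b, whose transcript of 1356 bases falls in a decile with a median of 0.35 and a lower quartile of 0.15, was at -0.55. Il1a, with 1974 bases, falls in a decile with a median of 0.24 and was at -0.63. Irak2 (3196 bases) and Il1rap (4520 bases) were also below the lower quartile of their deciles, -0.27 and -0.48. Il18, with 885 bases, had a log2 change of 0.25 in a decile with a median of 0.52, below its lower quartile of 0.35.

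**Figure D3:**
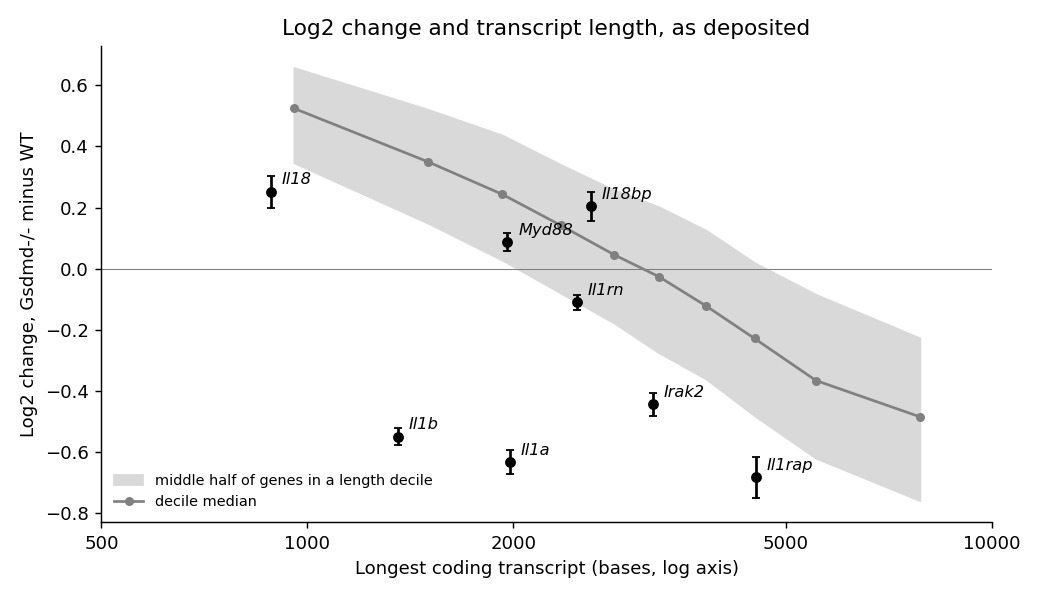
Log2 change as deposited (with SE) of the 8 tested genes against the length of their longest coding transcript (log axis), over the median (grey line) and quartiles (grey band) of all tested genes in each length decile. Il1b, Il1a, Irak2 and Il1rap lie below the grey band, Il1rn lies at its lower edge, and Myd88 and Il18bp lie within it. Il18 lies to the left of where the band starts and lower than the band there.

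The antagonist Il1rn fell less than both agonists, and its ratio to each agonist was higher in every Gsdmd-/- sample than in any WT sample. The ratio of Il1rn to Il1b was 1.86, 1.88 and 1.82 in WT and 2.52, 2.57 and 2.45 in Gsdmd-/- samples. Each Gsdmd-/- sample was above each WT sample, and the ratio was 1.36 times as high. The ratio of Il1rn to Il1a was 5.83, 6.18 and 5.60 in WT and 8.36, 8.51 and 8.56 in Gsdmd-/- samples, 1.45 times as high. For both, the two-sided exact permutation test gave p = 0.1, the smallest that 3 samples against 3 allow (0.133 adjusted over the 4 ratios compared), so this test could not pass a threshold of 0.05. The log2 difference was 0.44 for Il1b and 0.53 for Il1a. It was 0.26 and 0.24 after quantile normalization, and for Il1b 0.70 without the length and GC trend.

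The ratio of Il18bp to Il18 was 1.30, 1.51 and 1.53 in WT and 1.37, 1.35 and 1.46 in Gsdmd-/- samples. The groups overlapped (log2 difference -0.05, exact permutation p = 0.7), and without the length and GC trend the log2 difference was 0.20, in the other direction. It lay between -0.13 without WT replicate 1 and -0.01 without WT replicate 3. The ratio of Il1r2 to Il1r1 was 3.53, 3.64 and 2.83 in WT and 7.95, 4.96 and 3.80 in Gsdmd-/- samples. These last values rest on the few fragments given above, and 1 Gsdmd-/- sample lay just above the WT range (exact permutation p = 0.1, 0.133 adjusted). The log2 difference of 0.68 became 0.39 without Gsdmd-/- replicate 1.

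**Figure D4:**
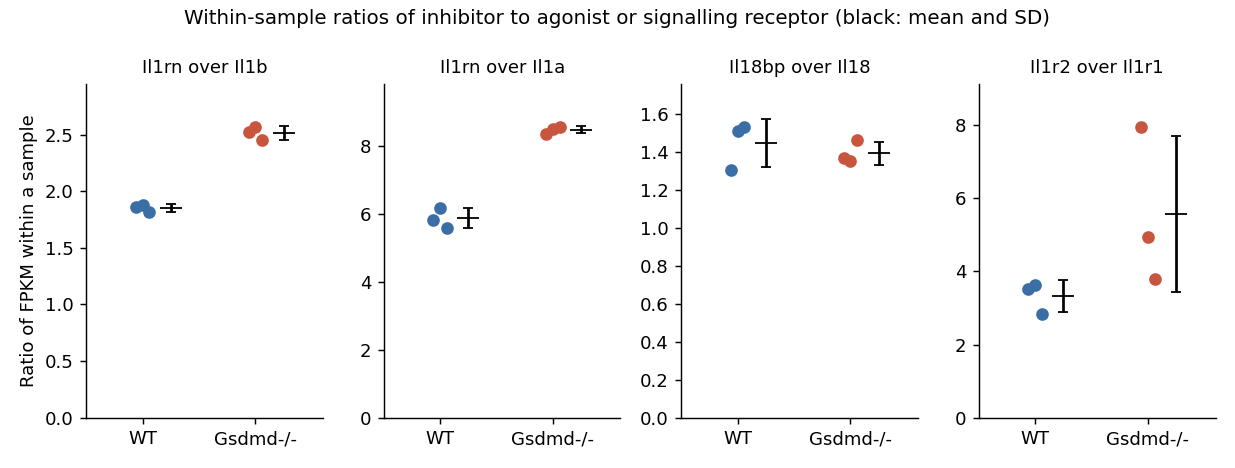
FPKM ratios within each sample, with 1 point per sample (WT blue, Gsdmd-/- red) and group mean and SD in black, on linear axes that start at 0. The Il1rn to Il1b and Il1rn to Il1a ratios are separated between groups, the Il18bp to Il18 ratios overlap, and the Il1r2 to Il1r1 ratios of Gsdmd-/- samples spread from 3.80 to 7.95.

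Of a wider list of 69 genes of the family and its route, with the 10 members included, 65 were in the tables and 50 were tested. Of these 18 rose and 28 fell, where 40.6% of all genes rose and 36.9% fell, with a median log2 change of -0.13 beside 0.03 for all genes. In TPM 7 rose and 33 fell, where 25.0% of all genes rose and 51.0% fell. Without the length and GC trend 15 rose and 23 fell, where 30.0% of all genes rose and 31.3% fell, and the median was -0.07. A gene near the filter could enter on its level in 1 group alone, so this count covers genes measured above that level and not the whole family.

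Other ligands of the family were low. Il36g, listed under its older symbol Il1f9, rose, with means of 2.36 ± 0.431 and 3.09 ± 0.184 FPKM in WT and Gsdmd-/- samples (SD, n = 3 each) and a log2 change of 0.29 (limma, adjusted p = 0.0110). This call was lost without the length and GC trend (limma, adjusted p = 0.0972) and in TPM (0.15, limma, adjusted p = 0.197). Il33, the alarmin gene, was at 0.780 ± 0.0346 and 0.797 ± 0.106 FPKM.

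The receptors for these ligands were mostly near the floor. Il1rl2, the interleukin-36 receptor gene that pairs with Il1rap, fell, with means of 2.32 ± 0.180 and 1.51 ± 0.156 FPKM in WT and Gsdmd-/- samples (SD, n = 3 each) and a log2 change of -0.40 (limma, adjusted p = 0.000386). Without the length and GC trend it was at -0.19 (limma, adjusted p = 0.0479). Of the 3 tested receptors 1 rose and 2 fell as deposited, where 40.6% of all genes rose and 36.9% fell. The receptor counts were the same without the length and GC trend, where 30.0% of all genes rose and 31.3% fell. With the replicate block added to that fit 1 rose and 1 fell, where 2971 of 9852 genes rose and 3072 fell. Il18rap, the accessory chain for interleukin-18, rose from 6.64 ± 0.228 to 8.52 ± 0.0458 FPKM (log2 change 0.32, limma, adjusted p = 0.000136). Its log2 change was 0.69 without the length and GC trend and 0.13 in TPM, where it did not pass (limma, adjusted p = 0.0775). Its partner Il18r1, the binding chain, was at 0.01 to 0.06 FPKM in the 6 samples, and Il1rl1, the interleukin-33 receptor gene, at 0.14 to 0.35 FPKM.

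Among adaptors, kinases and ubiquitin enzymes downstream of the receptors, 14 of 18 tested genes fell and 3 rose, where 36.9% of all genes fell and 40.6% rose, and the median log2 change was -0.34. In TPM 16 fell and 1 rose, where 51.0% of all genes fell and 25.0% rose. Tab3 entered on its level in WT alone. Tab2, an adaptor that links ubiquitin chains to the kinase TAK1, fell from 60.2 ± 1.45 to 33.0 ± 1.93 FPKM (log2 change -0.85). Chuk, which encodes the kinase IKK alpha, fell by 0.83 and Peli1, an E3 ubiquitin ligase gene, by 0.71 on the log2 scale. Ube2v1, a partner of the conjugating enzyme Ube2n, rose by 0.49 and Tab1, low at 2.97 and 3.67 FPKM in WT and Gsdmd-/- samples, by 0.24. Without the length and GC trend, 8 of these 18 fell and 3 rose, where 31.3% of all genes fell and 30.0% rose, with a median of -0.10. Tab2, Chuk, Peli1 and Ube2v1 were then past the threshold at -0.62, -0.53, -0.32 and 0.18, while Tab1 did not pass (limma, adjusted p = 0.75).

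Of 13 tested genes that process the precursors, 6 rose and 5 fell as deposited, and 3 rose and 6 fell in TPM. These counts are near the shares over all genes, 40.6% and 36.9% as deposited and 25.0% and 51.0% in TPM. Without the length and GC trend 7 of the 13 rose and 4 fell, where 30.0% of all genes rose and 31.3% fell. Pycard, the inflammasome adaptor ASC, rose from 18.8 ± 1.2 to 29.5 ± 1.18 FPKM and Casp8 by 0.31 on the log2 scale. Mefv, the gene of pyrin, fell by 0.25 at a low level, from 1.52 ± 0.111 to 1.12 ± 0.0153 FPKM. Casp4 (0.57), Nek7 (-0.73) and Nlrp3 (-0.42) also passed. Without the length and GC trend Nek7 was at -0.19, and in TPM Casp8 was at 0.09 and Casp4 at 0.35. Casp1, the caspase that cleaves both precursors, averaged 275 ± 1.93 and 317 ± 6.16 FPKM, a log2 change of 0.20 that passed as deposited and, at 0.16, without the length and GC trend. It did not pass in TPM (-0.02) or after quantile normalization (-0.04).

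Of 10 tested transcripts known to be induced through the shared NF-kB route, 5 rose and 4 fell as deposited, where 40.6% of all genes rose and 36.9% fell. In TPM 3 rose and 6 fell, where 25.0% and 51.0% of all genes did, and without the length and GC trend 3 rose and 6 fell, where 30.0% and 31.3% did. Nfkbiz, which encodes a nuclear cofactor of NF-kB, fell from 37.8 ± 0.631 to 23.5 ± 0.564 FPKM, and Tnfaip3, the gene of the inhibitor A20, from 89.9 ± 2.21 to 64.7 ± 4.18 FPKM. Ptgs2 fell furthest, by 1.44 on the log2 scale. Ccl20, a chemokine gene, rose from 0.860 ± 0.125 to 3.67 ± 0.768 FPKM (log2 change 1.32), having entered on its level in Gsdmd-/- samples. Cxcl1, also low, rose by 0.50, from 2.77 ± 0.0981 to 4.34 ± 0.270 FPKM. Without the length and GC trend Tnfaip3 was at -0.27 and Cxcl1 at 0.22. Nfkbia, the gene of I-kappa-B alpha, rose by 0.33 as deposited and was at -0.01 without the length and GC trend (limma, adjusted p = 0.663).

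**Figure D5:**
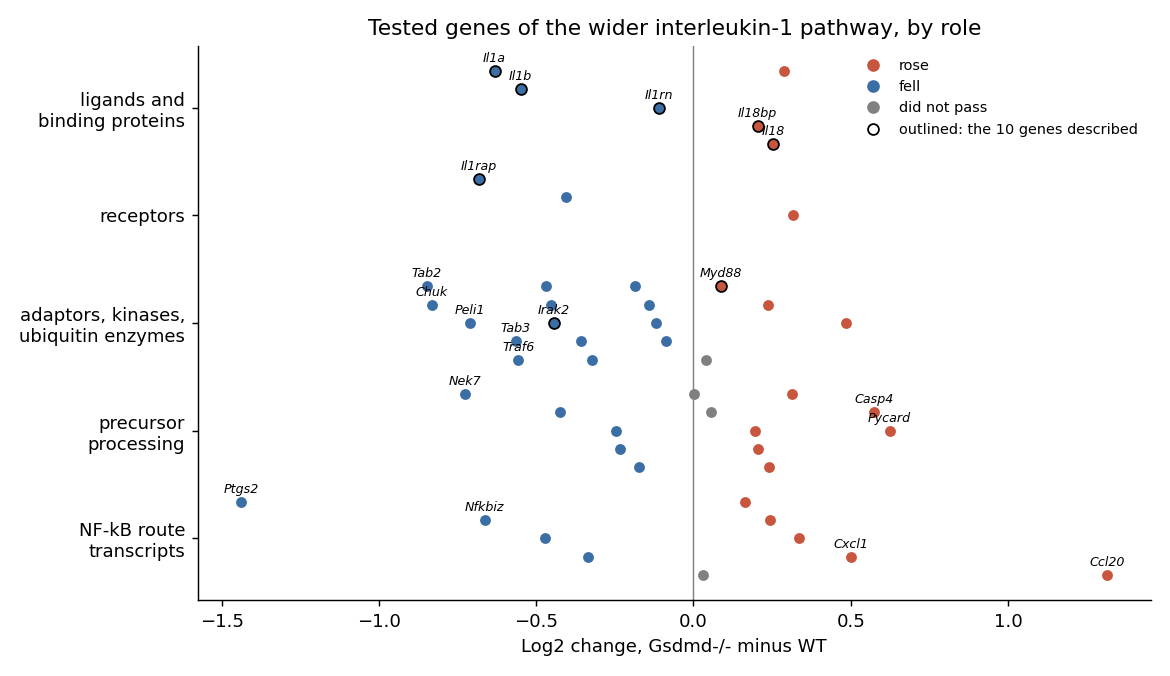
Log2 change, Gsdmd-/- minus WT, of the 50 tested genes of the wider list in 5 roles, colored by whether they rose (red), fell (blue) or did not pass (grey), with the tested genes among the 10 described above outlined in black. The adaptors, kinases and ubiquitin enzymes lie mostly to the left of 0, from -0.85 for Tab2 to 0.49 for Ube2v1, and the NF-kB route transcripts span -1.44 to 1.32.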

How the data were processed

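Libraries were made for the BGISEQ-500, per the labels' protocols. The submitters' processing notes name Bowtie2 (version 2.2.5) and, as genome, GRCm38.p6. The program that made the gene values, its annotation and its strand setting are not named there. The tables that the authors deposited hold 1 value per gene without a stated unit, read here as FPKM, since column sums differ and steps between low values follow transcript length. Fragments per library were estimated from those steps.

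The test was limma (version 3.58.1, R version 4.3.3) with trend and robust settings on log2(FPKM + 1), which understates changes of low genes, over the 10005 genes reaching 1 FPKM in 3 or more of 6 samples. P-values are two-sided with Benjamini-Hochberg adjustment. Replicate pairs within a group differed by 1.67 to 2.31 in chi-square per degree of freedom on the implied reads, more than counting noise, and were kept as separate samples. The length and GC trend was removed per sample with natural splines on the longest GENCODE M21 coding transcript, found for 98.5% of tested genes. Coordinates are 1-based RefSeq positions in GRCm38.p6. The 10 genes and all lists were chosen with earlier results of these data known. Genes named from the wider list are up to 3 per role and direction with the largest log2 change past the threshold; others were named after their values were seen. Scripts were tested on simulated data.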

Additional observations from a re-analysis of the deposited data

How the results depend on the processing

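Settings varied were the pseudocount (0.1 and 0.01), the filter (none, or a mean of at least 5 FPKM), TPM, median ratio scaling, quantile normalization, removal of the length and GC trend, limma without its trend and robust settings, the replicate block and each sample left out. The trend together with the block, and quantile normalization of the ratios, were added after seeing the data. Il1a, Il1b, Il1rn, Il1rap and Irak2 kept direction and call under each setting that gave a value. Il1rap gave none under the stricter filter, which it did not pass. The direction turned for Il18 with the length and GC trend removed (-0.052, with the block too), for Il18bp in TPM (-0.0133) and for Myd88 in TPM (-0.13), after quantile normalization (-0.0741) and with the trend removed (-0.19, with the block too). Myd88 also lost its call under median ratio scaling (0.05, limma, adjusted p = 0.162) and plain limma (adjusted p = 0.0845). With single samples left out, 2 to 3 members rose and 5 fell. Members that rose went from 3 to 0 in TPM (limma, with 0 also at an unadjusted p under 0.05) and to 1 with the trend removed, with or without the block. Rises in the wider list went from 18 to 7 in TPM. Over all genes, rises went from 4059 to 2498 in TPM, and falls from 3693 to 2459 under the stricter filter, which tests fewer genes. The log2 ratio of Il1rn to Il1b moved from 0.44 to 0.70 and that of Il18bp to Il18 from -0.05 to 0.20 with the trend removed. After quantile normalization the log2 ratio of Il1rn to Il1b moved to 0.26 and that of Il1rn to Il1a from 0.53 to 0.24. The cause was not tested. Same-numbered samples did not deviate together (correlations of -0.08, 0.13 and 0.01), and not every sample correlated best with its own number, so the numbers do not pair them. The replicate block gave 4095 rises and 3706 falls over all genes, and 3 and 5 among the members. Il1r1 and Il1r2 rest on 17 to 43 estimated fragments per library, which limits what could be seen.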

Other observations

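Among 3237 other genes with a mean of at least 20 FPKM, those whose profile over the 6 samples lay closest to that of Il1b, by root mean square difference of centred log2(FPKM + 1), were Ap1g1 (0.0149), Ubqln1 (0.0158) and Tmem229b (0.0158). Ap1g1, an adaptor subunit of clathrin coats, averaged 24.8 ± 0.477 FPKM in the WT against 16.6 ± 0.370 in the Gsdmd-/- samples (SD, n = 3 each). Tmem229b was at 90.4 ± 1.27 and 61.9 ± 1.29 FPKM. Closest to Il1rn were Naa20 (0.0078), Pcna (0.0115) and Max (0.0127), and Pcna, the sliding clamp of DNA replication, was at 173 ± 0.751 and 161 ± 1.55 FPKM. These profiles are set mainly by the difference between the groups and are given as a description.

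Il36a, listed as Il1f6, was at 0 in the 3 WT samples and at 0.06, 0.06 and 0.17 FPKM in Gsdmd-/- samples. Sigirr, an inhibitory receptor gene of the family, was at 0.21 to 0.35 FPKM across WT and 0.38 to 0.72 across Gsdmd-/- samples. Both were below the level tested. Irak3, an inhibitory IRAK family gene, was at 9.57 ± 0.229 and 9.87 ± 0.229 FPKM (SD, n = 3 each, limma, adjusted p = 0.459), beside the fall of Irak2.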
